A study of Mus musculus with 15 samples.

Results

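TRBV19 receptors were all T-cell receptor beta chains whose V gene was called as TRBV19, an older name for which is Vβ6. They were 3633 of the 59364 beta-chain clonotypes in 15 libraries, or 6.12%. A clonotype here is 1 combination of V family, J cluster and nucleotide CDR3 in 1 library. The libraries came from CD8 T cells taken at 125 days of age from non-obese diabetic (NOD) mice, which develop autoimmune diabetes spontaneously. Spleen and non-draining lymph node cells of each mouse were stained with an H-2Kd tetramer carrying a peptide of IGRP, an antigen of pancreatic beta cells, and were separated on a magnetic column. The 4 groups were tetramer-positive CD8 T cells of Ifngr1-mutant NOD mice (mutant TET, n = 4), tetramer-positive CD8 T cells of wild-type NOD mice (WT TET, n = 3), CD8+CD44+ cells of Ifngr1-mutant NOD mice that did not bind the tetramer (mutant CD8, n = 4) and the same cells of wild-type NOD mice (WT CD8, n = 4). Ifngr1 encodes the ligand-binding chain of the interferon-γ receptor, and the labels do not say which mutation the mice carry or whether all of their cells carry it.

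A beta chain is made by joining a V, a D and a J segment, and the nucleotides lost and added at the joints form CDR3, the loop that lies over the peptide in most receptors. The V segment supplies the first residues of CDR3 and the whole of CDR1 and CDR2. Each J segment belongs to the TRBJ1 or the TRBJ2 cluster, which lie in tandem with a D segment each. In mice, TRBV19 and TRBV13 are the beta chain families used most by mucosal-associated invariant T (MAIT) cells, which are defined by an invariant alpha chain. Only beta chains were amplified here, so a TRBV19 clonotype in these libraries cannot be assigned to MAIT or to conventional CD8 T cells. RefSeq places Trbv19 on mouse chromosome 6, between the pseudogene Trbv18 and Trbv20.

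The residues CASSI opened the CDR3 of TRBV19 clonotypes more often than that of any other family. The sequences below show receptors with and without this start, namely the largest TRBV19 clonotypes of 3 libraries, and 3 receptors that recurred between mice. Of the largest clonotypes, that of mutant CD8 3 was also found in more than 1 mouse, with the same nucleotide sequence in 2 libraries. Each sequence reads 5′ to 3′ from the first to the last codon of CDR3. Capitals mark the nucleotides between the end of the V alignment and the start of the J alignment, as the deposited positions give them.
mutant TET 1, largest clonotype, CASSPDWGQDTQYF: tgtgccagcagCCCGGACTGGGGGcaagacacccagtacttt
WT TET 1, largest clonotype, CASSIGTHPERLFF: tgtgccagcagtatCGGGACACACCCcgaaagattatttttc
mutant CD8 3, largest clonotype, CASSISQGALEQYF: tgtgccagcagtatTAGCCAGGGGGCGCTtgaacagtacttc
in 3 mutant TET libraries, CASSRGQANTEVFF: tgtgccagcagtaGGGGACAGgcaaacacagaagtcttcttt
in 1 mutant and 1 WT TET library, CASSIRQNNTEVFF: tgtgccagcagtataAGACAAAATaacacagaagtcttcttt
in mutant TET 1 and mutant TET 3, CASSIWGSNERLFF: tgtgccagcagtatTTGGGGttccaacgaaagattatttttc

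The family call was compared with that start. This is not an independent check, since the V segment supplies the first residues of CDR3 and the V alignment reaches into them. CASSI opened 36.6% of the 3633 TRBV19 entries, against 1.72% in TRBV17, the next highest of the 15 families compared. Residue 5 of CDR3 was isoleucine in 37.8% of TRBV19 entries, the most frequent single residue there, proline in 13.5% and methionine in 8.06%. The deposited alignments used V references of 3 lengths: 305 nt for 2959 entries (81.4%), 304 nt for 413 and 301 nt for 261 (7.18%). Among the 301 nt entries, CASSI opened only 1.53%, and codon 4 of CDR3 was AGC in 62.1%, against 4.46% at 305 nt. The call is therefore less certain for those entries, and results whose call or direction changes, or whose value moves by over 1.5 times, when only the 305 nt entries are kept are given with both values. The 305 nt reference was used for 33.3%, 100% and 57.1% of TRBV19 clonotypes in WT TET 1, WT TET 2 and WT TET 3. It was used for 83.2% to 92.6% in mutant TET and 74.7% to 84.5% in CD8 libraries. In addition, 80 TRBV19 entries (2.20%) had a nucleotide CDR3 that was also listed under another V family.

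Total counts were 17294 to 60164 in mutant TET, 2536 to 14958 in WT TET, 20909 to 32856 in mutant CD8 and 17116 to 27836 in WT CD8 libraries. The labels do not say whether a count is a read or a molecule tagged by its unique molecular identifier (UMI), so the exact Clopper-Pearson intervals below cover counting error only. Mutant TET 4 and WT TET 2 shared 18 clonotypes, which held 88.9% of the counts of mutant TET 4 and 25.4% of those of WT TET 2. None of the 18 was TRBV19, but they enter the totals, so results on TET libraries are also given without both libraries where the call changed or the value moved by over 1.5 times. Within a strain, TET and CD8 libraries with the same number were treated as coming from the same mouse.

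With each clonotype counted once, no difference in the TRBV19 share between tetramer-positive and tetramer-negative repertoires was detected. They made up 7.52%, 7.14%, 5.82% and 6.87% of the clonotypes of the 4 mutant TET libraries, which are 75, 157, 95 and 27 clonotypes. In the 3 WT TET libraries they made up 2.94%, 3.17% and 7.22%, which are only 3, 4 and 7 clonotypes. In the mutant CD8 libraries their shares were 5.80%, 6.86%, 6.004% and 6.19%, and in the WT CD8 libraries 5.20%, 5.83%, 6.28% and 5.69%. The shares of all 4 groups overlapped, and those of WT TET 1 and WT TET 2 were the lowest. Their 95% intervals were wide, from 0.611% to 8.36% in WT TET 1 and from 0.872% to 7.93% in WT TET 2, and each contained every other library's share.

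**Figure D1:**
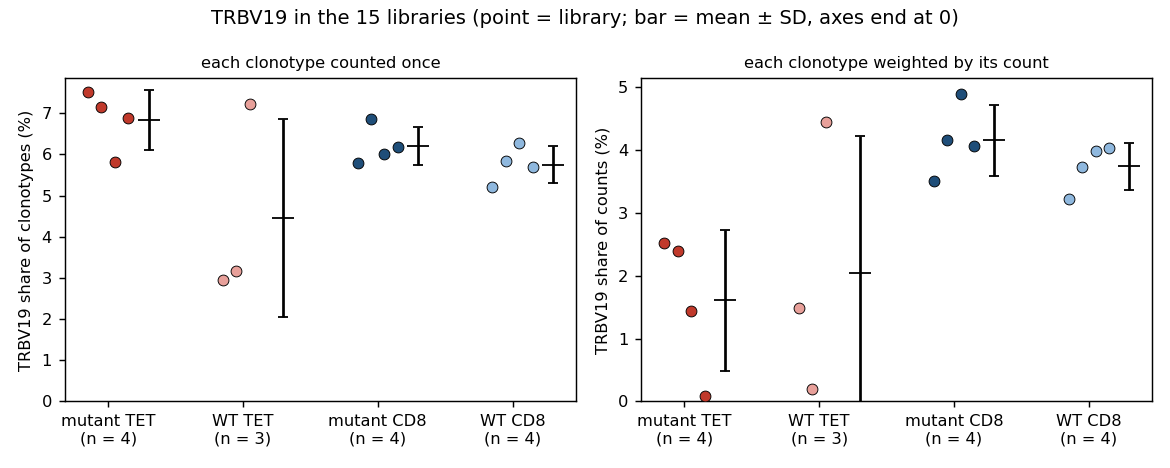
TRBV19 share of clonotypes (left, %) and of counts (right, %) in the 15 libraries, by group; points are libraries and bars the mean ± SD. By clonotype the groups overlap, whereas by count 6 of the 7 TET libraries lie below all 8 CD8 libraries.

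TET libraries were compared with CD8 libraries by edgeR's quasi-likelihood test on clonotypes per V family, with strain as a covariate. V use differed widely between the fractions: 13 of 15 families tested (86.7%) passed an adjusted p under 0.05. TRBV19 was 1 of the 2 that did not, with a log2 fold change of TET over CD8 of 0.08 (SE 0.11, edgeR adjusted p = 0.497). TRBV4 was the other, at -0.0014 (SE 0.11, edgeR adjusted p = 0.990). TRBV13, the other family known from MAIT cells and the largest family here, was higher in TET by 0.48 (SE 0.06, edgeR adjusted p = 1.67e-08). The direction for TRBV19 depended on scaling: with TMM factors its log2 fold change was -0.13 (edgeR adjusted p = 0.192). It was 0.12 with the 305 nt entries alone (edgeR adjusted p = 0.339).

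**Figure D2:**
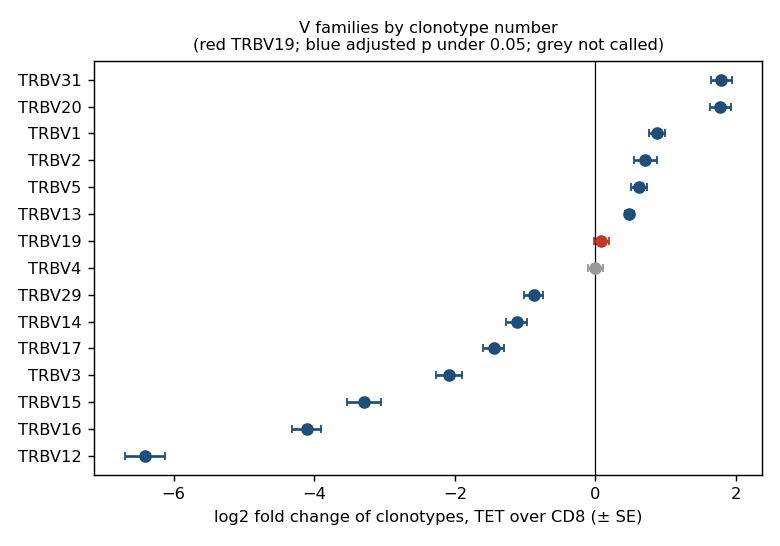
Log2 fold change of clonotype number, TET over CD8, with its SE, for the 15 V families tested by edgeR. TRBV19 (red) lies at 0.08, next to TRBV4, while the blue families passed an adjusted p under 0.05.

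Between the strains, no difference in the TRBV19 share of clonotypes passed the test. In TET it was 6.84% ± 0.73 in mutant (SD, n = 4) and 4.44% ± 2.40 in WT libraries (SD, n = 3), a log2 fold change of 0.65 (SE 0.41, edgeR adjusted p = 0.193). In this comparison 1 of 8 families tested (12.5%) was called, and that was TRBV13, which was lower in mutant TET (log2 fold change -0.38, edgeR adjusted p = 0.0358). Keeping only TRBV19 entries with the 305 nt V reference gave 1.04 (edgeR adjusted p = 0.0977), and leaving out mutant TET 4 and WT TET 2 gave 0.43 (edgeR adjusted p = 0.546). In CD8 the share was 6.21% ± 0.46 in mutant and 5.75% ± 0.45 in WT libraries (SD, n = 4 each), a log2 fold change of 0.10 (SE 0.08, edgeR adjusted p = 0.671). None of 17 families was called there by edgeR, none had an unadjusted p under 0.05, and DESeq2 also called 0. The strain effect in TET minus that in CD8 was 0.56 (SE 0.37, edgeR adjusted p = 0.311), with 0 of 15 families called by edgeR, 3 at an unadjusted p under 0.05, and 1 called by DESeq2. It was 0.95 with the 305 nt entries alone (edgeR adjusted p = 0.187) and 0.34 without mutant TET 4 and WT TET 2 (edgeR adjusted p = 0.722).

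Over the 15 libraries, the families whose share of clonotypes followed that of TRBV19 most closely were TRBV2 (Spearman rho 0.85), TRBV5 (0.70) and TRBV4 (0.48). TRBV13 stood at -0.0071, rank 7 of the 14 families ranked. Within the 8 CD8 libraries alone the values were 0.71 for TRBV2, 0.21 for TRBV5 and 0.29 for TRBV4. The shares within a library sum to a fixed total, so these values describe the libraries only.

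Weighted by counts, TRBV19 took a smaller place in TET than in CD8 libraries. It held 2.52%, 2.40%, 1.43% and 0.0831% of counts in the mutant TET libraries and 1.49%, 0.194% and 4.46% in the WT TET libraries. In the mutant CD8 libraries it held 3.52%, 4.16%, 4.89% and 4.07%, and in the WT CD8 libraries 3.22%, 3.74%, 3.98% and 4.04%. By counts edgeR called 10 of 17 families between the fractions (58.8%), and TRBV19 was not among them (log2 fold change -1.15, edgeR adjusted p = 0.128). All TET libraries except WT TET 3 lay below every CD8 library. The mean was 1.80% ± 1.51 in TET (SD, n = 7) and 3.95% ± 0.50 in CD8 (SD, n = 8), a difference of -2.12 percentage points with strains weighted equally (two-sided exact permutation test within strain, p = 0.00408, adjusted p = 0.0245 over 18 exact tests). Without mutant TET 4 and WT TET 2 the difference was -1.41 (exact permutation adjusted p = 0.0539). Taken within the 7 mice that had both libraries it was -2.14 (exact sign-flip permutation adjusted p = 0.0703), and WT 3 was the mouse in which TET was higher. A lower share of counts in TET was not particular to TRBV19. Of the 10 families that edgeR called by counts, 9 were lower in TET and 1 was higher. TRBV13 held 83.3% of counts in TET and 49.0% in CD8 (means over libraries). Among 15 families ranked by mean share of counts, TRBV19 had rank 5 in TET and rank 8 in CD8.

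The strains did not differ detectably in the TRBV19 share of counts. In TET it was 1.61% ± 1.13 in mutant (SD, n = 4) and 2.05% ± 2.18 in WT libraries (SD, n = 3), with an exact permutation p of 0.771. In CD8 it was 4.16% ± 0.57 in mutant and 3.74% ± 0.37 in WT libraries (SD, n = 4 each), with an exact permutation p of 0.314. The smallest p that either split allows is 0.0286. The sign of the TET difference turned without mutant TET 4 (0.0689 points), without WT TET 3 (0.766 points) and with the 305 nt entries alone (0.464 points). Without both mutant TET 4 and WT TET 2 it was -0.857 points (exact permutation p = 0.600).

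The lower share by counts came with small clones. Clone size was measured as the mean count of TRBV19 clonotypes over that of all other clonotypes of the same library, on a log2 scale. TRBV19 clonotypes averaged 5.80, 3.43, 3.32 and 1.85 counts in mutant TET, where the other clonotypes averaged 18.3, 10.7, 14.1 and 164.2. In WT TET they averaged 24.7, 7.25 and 16.1 counts, where the others averaged 49.4, 122.4 and 26.9. In mutant CD8 they averaged 2.82, 2.62, 2.06 and 2.20 counts against 4.76, 4.45, 2.57 and 3.42, and in WT CD8 5.20, 3.36, 2.35 and 2.00 against 8.57, 5.35, 3.79 and 2.87. In all 15 libraries TRBV19 clonotypes were the smaller.

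**Figure D3:**
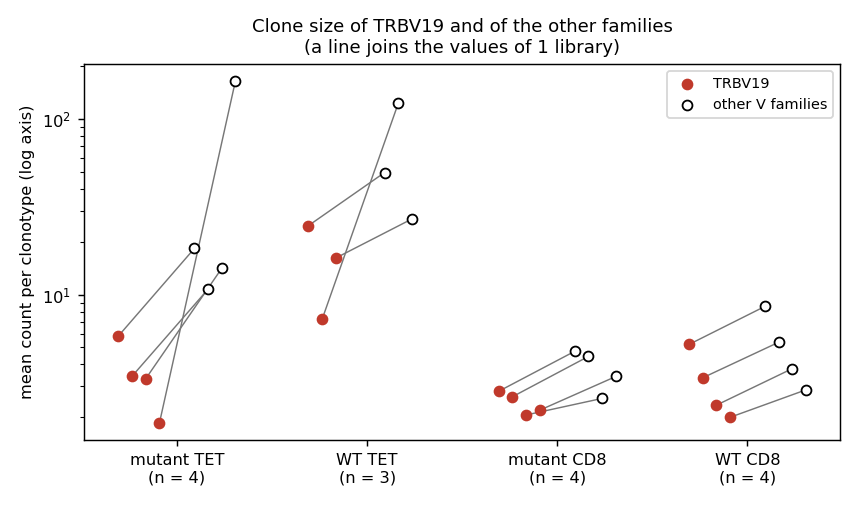
Mean count per clonotype (log axis) of TRBV19 clonotypes (red) and of all other V families (open) in each library, by group; a line joins the values of 1 library. TRBV19 is lower in all 15 libraries, with the widest gap in mutant TET 4.

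Relative to the other families, TRBV19 clone size was -2.53 ± 2.05 in TET (SD, n = 7), or 5.76-fold lower, and -0.63 ± 0.15 in CD8 (SD, n = 8), or 1.55-fold lower. Both passed the exact sign-flip permutation test, with adjusted p = 0.0402 in TET (lower in 7 of 7) and adjusted p = 0.0281 in CD8 (lower in 8 of 8). The difference between the fractions, -1.82, also passed (exact permutation p = 0.000408, the smallest possible, adjusted p = 0.00367). These differences rested in large part on TRBV13. That family held 83.3% ± 10.05 of counts in TET (SD, n = 7) and 49.0% ± 3.57 in CD8 (SD, n = 8), and its own clonotypes averaged 6.55 times the mean count of all others in TET. With TRBV13 left out of the other families, TRBV19 stood at -0.50 in TET (exact permutation adjusted p = 0.539) and -0.28 in CD8 (exact permutation adjusted p = 0.0281), and the fractions differed by -0.13 (exact permutation adjusted p = 0.970). Without mutant TET 4 and WT TET 2 the fractions differed by -0.70 (exact permutation adjusted p = 0.0171), and the value within TET was -1.43 (n = 5, exact permutation adjusted p = 0.141, unadjusted p = 0.0625, the smallest that 5 libraries allow). The call within TET was also lost at each omission of 1 library (exact permutation adjusted p = 0.0703, unadjusted p = 0.03125, the smallest that 6 libraries allow, with values of -2.82 to -1.87). Among 15 families ranked from largest to smallest mean relative clone size, TRBV19 had rank 5 in TET and rank 12 in CD8.

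The strains were not told apart by clone size. Relative clone size averaged -2.97 ± 2.35 in mutant TET (SD, n = 4) and -1.94 ± 1.86 in WT TET (SD, n = 3), with an exact permutation p of 0.571. Without mutant TET 4 the difference changed sign, to 0.14. In CD8 it was -0.62 ± 0.21 in mutant and -0.65 ± 0.09 in WT libraries (SD, n = 4 each), with an exact permutation p of 0.8286 for a difference of 0.03. That difference changed sign without mutant CD8 3 (-0.07) and with TRBV13 left out (-0.03), and was 0.06 with the 305 nt entries alone. Clonotypes with a single count made up 25.3% to 55.6% of TRBV19 clonotypes in mutant TET, 0% to 50% in WT TET, 31.0% to 49.2% in mutant CD8 and 14.2% to 45.4% in WT CD8.

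No TRBV19 clonotype dominated a library. The largest in the TET libraries was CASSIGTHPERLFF of WT TET 1, printed above, with 43 counts or 0.866% of the library (95% interval 0.627% to 1.16%), and it ranked 40 in size. By share of its library, the largest TRBV19 clonotype of WT TET 3 was higher, with 26 counts or 1.03%, and it was joined to TRBJ2-2. Its V reference had 301 nt, as had those of the largest clonotypes of mutant TET 3 and WT CD8 2. The TRBV19 call of these clonotypes is therefore less certain. In mutant TET the largest clonotypes held 29, 14, 22 and 8 counts and ranked 122, 305, 167 and 77. In CD8, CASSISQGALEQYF of mutant CD8 3 stood out with 51 counts and rank 2 in that library, whereas the largest TRBV19 clonotypes of the other CD8 libraries held 8 to 21 counts.

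TRBV19 clonotypes used the TRBJ1 cluster more often in TET than in CD8. The other families together also had a higher mean TRBJ1 share in TET, a difference that was not tested. It was 37.1% ± 7.83 in TET (SD, n = 7) and 27.9% ± 1.70 in CD8 (SD, n = 8). TRBJ1 was joined in 52.0%, 47.1%, 48.4% and 40.7% of TRBV19 clonotypes in mutant TET and in 66.7%, 75.0% and 42.9% in WT TET, where it was 2 of 3, 3 of 4 and 3 of 7 clonotypes. In mutant CD8 it was joined in 31.4%, 31.9%, 32.0% and 30.8%, and in WT CD8 in 30.2%, 31.9%, 38.5% and 37.4%. Every TET library lay above every CD8 library. The mean was 53.3% ± 12.8 in TET (SD, n = 7) and 33.0% ± 3.13 in CD8 (SD, n = 8), a difference of 21.3 percentage points with strains weighted equally (exact permutation p = 0.000408, the smallest possible, adjusted p = 0.00367). The difference was 15.4 to 27.9 points, with an exact permutation adjusted p of 0.0402 or less, under the 7 processing alternatives run, and 17.9 to 25.9 points when each library was left out in turn. The few WT TET clonotypes weigh heavily in it. In the mutant libraries alone, with 354 TRBV19 clonotypes in TET, the TRBV19 means were 47.1% in TET and 31.5% in CD8. The means of the other families there were 41.5% and 27.0%, a shift of similar size. Whether the shifts differ was not tested.

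**Figure D4:**
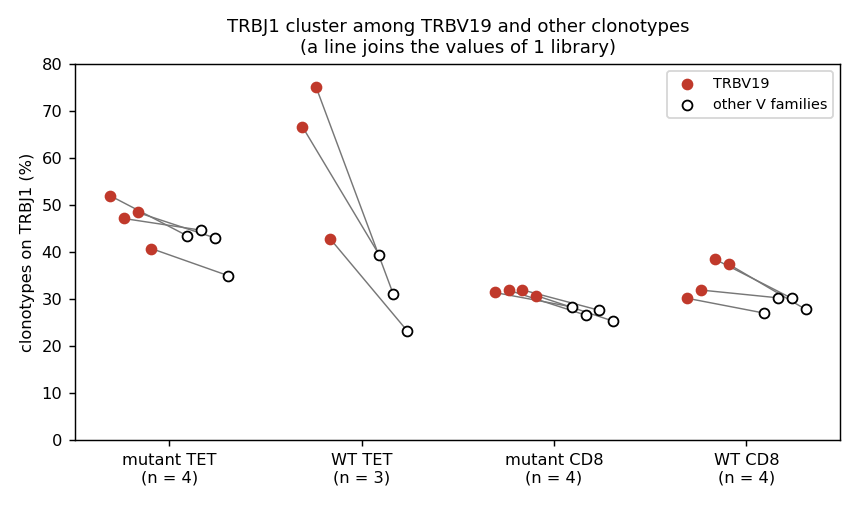
Share of clonotypes on the TRBJ1 cluster (%) among TRBV19 clonotypes (red) and among those of all other V families (open), by library and group; a line joins the values of 1 library. TRBV19 lies above the other families in all 15 libraries, and every TET library lies above every CD8 library for TRBV19.

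Among the other families together, the TRBJ1 share was 41.5% ± 4.43 in mutant TET, 31.3% ± 8.03 in WT TET, 27.0% ± 1.32 in mutant CD8 and 28.8% ± 1.65 in WT CD8 (SD, n = 4, 3, 4 and 4). Within a library, TRBV19 exceeded them by 16.1 ± 15.1 points in TET (SD, n = 7) and by 5.10 ± 2.70 points in CD8 (SD, n = 8). TRBV19 was higher in 7 of 7 TET libraries (exact sign-flip permutation adjusted p = 0.0402) and in 8 of 8 CD8 libraries (exact sign-flip permutation adjusted p = 0.0281). The TET call was lost at each omission of 1 library (exact permutation adjusted p = 0.0703, with values of 11.5 to 18.4 points), and without both mutant TET 4 and WT TET 2 (12.6 points, exact permutation adjusted p = 0.141). The CD8 call was lost when clonotypes were weighted by counts (4.06 points, exact permutation adjusted p = 0.0603). The TET excess was 2.47 to 8.51 points in the mutant libraries, against 19.5 to 43.9 points in the WT libraries with their 3 to 7 clonotypes. Whether the excess itself differed between TET and CD8 was not tested. Among 15 families TRBV19 had rank 1 for TRBJ1 share in TET and rank 3 in CD8. These ranks use means over libraries, so each WT TET library counts as much as each mutant one. In TET, TRBV29 came next at 46.7%. In CD8 the leading means were close, at 33.5% for TRBV20, 33.3% for TRBV29 and 33.0% for TRBV19.

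The strains did not differ detectably in J cluster. The TRBJ1 share was 47.1% ± 4.70 in mutant TET (SD, n = 4) and 61.5% ± 16.7 in WT TET (SD, n = 3; exact permutation p = 0.171). That difference of -14.4 points varied widely. It was -28.5 with the 305 nt entries alone (exact permutation adjusted p = 0.114), -4.55 without single-count clonotypes and -9.001 at equal depth. It was -7.69 without WT TET 2, -23.8 without WT TET 3 and -5.58 without mutant TET 4 and WT TET 2, and passed the test in none of these. In CD8 the TRBJ1 share was 31.5% ± 0.56 in mutant and 34.5% ± 4.07 in WT libraries (SD, n = 4 each; exact permutation p = 0.343).

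Single J segments were read from the length of the J reference, which leaves TRBJ1-1 and TRBJ1-2, TRBJ1-3 and TRBJ1-5, and TRBJ2-3, TRBJ2-4 and TRBJ2-5 unresolved. These values are descriptions without a test. TRBJ1-1 or TRBJ1-2 was joined in 23.5% ± 5.86 of TRBV19 clonotypes in TET and 13% ± 1.6 in CD8 (SD, n = 7 and 8). TRBJ1-4 was joined in 15.97% ± 11.3 in TET and 6.55% ± 1.67 in CD8. The other families also had higher means in TET for these segments. For TRBJ1-1 or TRBJ1-2 these were 16.2% in TET and 12.1% in CD8, and for TRBJ1-4 7.96% and 5.88%. WT TET held only 4 and 2 of the TRBV19 clonotypes on these segments, at 25% to 33.3% and 0% to 33.3% per library. In mutant TET alone the TRBV19 means were 19.3% and 13.4%, against 17.6% and 9.68% in other families. Within CD8, TRBV19 lay apart from the other families in every library for TRBJ1-6 and TRBJ2-2. TRBJ1-6 was joined in 6.27% ± 0.84 of TRBV19 clonotypes against 3.18% ± 0.19 of those of other families (SD, n = 8). The lowest of the 8 TRBV19 values, 5.01% in WT CD8 3, lay above the highest of other families, 3.598% in mutant CD8 2. TRBJ2-2 was joined in 8.32% ± 1.17 of TRBV19 clonotypes against 6.43% ± 0.45 (SD, n = 8), with 7.24% in mutant CD8 4 the lowest TRBV19 value and 6.90% in mutant CD8 2 the highest of other families. In TET the TRBJ1-6 share was 3.43% ± 5.07 for TRBV19 and 3.44% ± 1.84 for other families (SD, n = 7), from 11 TRBV19 clonotypes in all. Of these, 1 was in WT TET 3, where it made up 14.3% of 7 clonotypes. In mutant TET alone the share was 2.43% ± 1.72 for TRBV19 and 4.78% ± 0.48 for other families (SD, n = 4), from 10 TRBV19 clonotypes. In WT CD8 1, TRBJ2-1 reached 26.4% of TRBV19 clonotypes, 28 of 106, against 14.9% in the other families of that library.

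No difference in TRBV19 CDR3 length between TET and CD8 was detected with all libraries in. The mean length of TRBV19 clonotypes, in amino acids, was 13.97, 13.91, 13.87 and 13.78 in mutant TET and 13.67, 14.25 and 13.71 in WT TET. The TET mean was 13.88 ± 0.20 (SD, n = 7) and the CD8 mean 13.90 ± 0.06 (SD, n = 8), with an exact permutation p of 0.893. The call rested on single libraries: without WT TET 2 the difference was -0.11 (exact permutation adjusted p = 0.0234), and without WT TET 2 and mutant TET 4 it was -0.10 (exact permutation adjusted p = 0.0343). With the 305 nt entries alone it was 0.135 (exact permutation adjusted p = 0.309). Within TET the mutant libraries averaged 13.88 ± 0.08 (SD, n = 4) and the WT libraries 13.88 ± 0.32 (SD, n = 3; exact permutation p = 1.0). With the 305 nt entries alone that difference was -0.37 (exact permutation p = 0.0286, adjusted p = 0.0571), and without mutant TET 4 and WT TET 2 it was 0.229 (exact permutation adjusted p = 0.200).

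In CD8 the mutant libraries had the longer TRBV19 CDR3s, by a small margin. Mean lengths were 13.97, 13.94, 13.94 and 13.97 in mutant CD8 and 13.82, 13.83, 13.84 and 13.90 in WT CD8, so the groups did not overlap. The means were 13.95 ± 0.02 in mutant CD8 and 13.85 ± 0.04 in WT CD8 (SD, n = 4 each), a difference of 0.107 residues. The exact permutation p was 0.0286, the smallest that 4 against 4 allows, and the adjusted p of 0.0643 missed the threshold. With the 305 nt entries alone the difference was 0.048 (exact permutation adjusted p = 0.457). The other families had 13.91 ± 0.02 in mutant CD8 and 13.88 ± 0.02 in WT CD8. Within a library, TRBV19 CDR3s differed from those of other families by 0.126 ± 0.306 residues in TET (SD, n = 7; exact permutation adjusted p = 0.539) and by 0.0063 ± 0.0546 in CD8 (SD, n = 8; exact permutation adjusted p = 0.926). The TET value was 0.284 with the 305 nt entries alone and 0.0117 without mutant TET 4 and WT TET 2. The CD8 value was 0.0367 with the 305 nt entries alone and -0.119 with TRBV13 left out (exact permutation adjusted p = 0.0234).

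**Figure D5:**
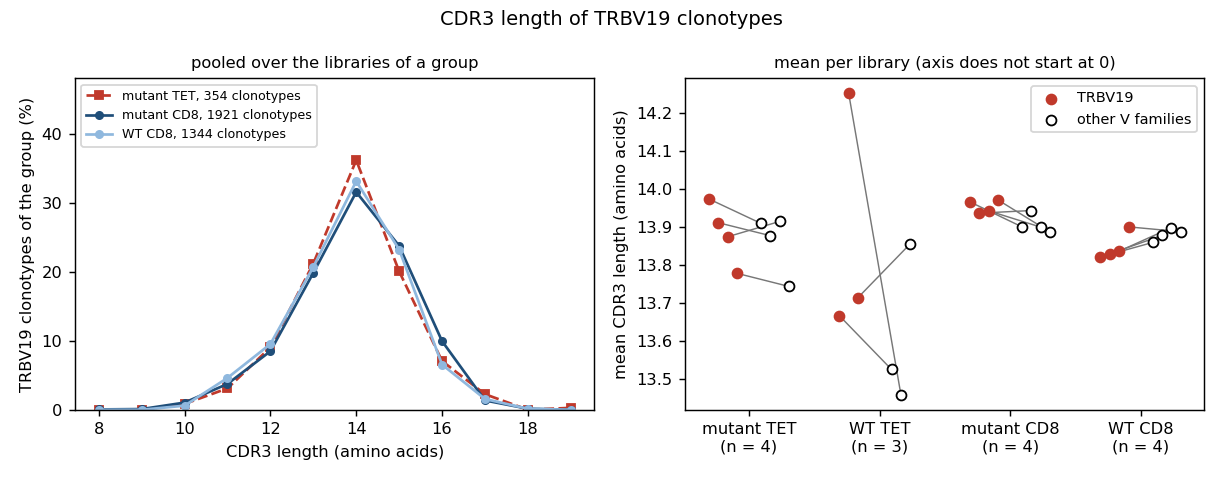
Left, share of TRBV19 clonotypes (%) by CDR3 length in amino acids, pooled over the libraries of mutant TET, mutant CD8 and WT CD8 (WT TET, with 14 clonotypes, is not drawn). Right, mean CDR3 length per library for TRBV19 (red) and other families (open); the TRBV19 values of mutant CD8 lie at 13.94 to 13.97 and those of WT CD8 at 13.82 to 13.90.

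Pooled over the libraries of a group, the most frequent CDR3 length was 14 residues in each group. It was found in 36.2% of TRBV19 clonotypes in mutant TET, 35.7% in WT TET, 31.5% in mutant CD8 and 33.1% in WT CD8. CDR3s of 16 residues were 9.94% of the pooled TRBV19 clonotypes in mutant CD8 and 6.55% in WT CD8. Per library, CDR3s of 16 residues or more were 11.1% to 11.7% in mutant CD8 and 6.45% to 11.3% in WT CD8, so the ranges overlapped. In CD8, the stretch between the V and J alignments, which holds the D segment and added nucleotides, was longer in the mutant libraries, as CDR3 was. It measured 9.71 ± 0.13 nt in mutant CD8 and 9.20 ± 0.19 nt in WT CD8 (SD, n = 4 each), with ranges of 9.57 to 9.83 and 9.08 to 9.48. In other families it measured 9.65 ± 0.09 nt in mutant CD8 and 9.55 ± 0.06 nt in WT CD8, and the ranges overlapped. In TET it measured 8.84 ± 0.40 nt in mutant TET (SD, n = 4) and 9.54 ± 2.41 nt in WT TET (SD, n = 3), and the WT range of 6.75 to 11 nt enclosed the mutant range. These nucleotide values depend on where the aligner ended V and J, and they were not tested.

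TRBV19 receptors, counted by their amino acid CDR3, were mostly private to 1 library. There were 3406, of which 347 were seen in TET, 3101 in CD8 and 42 in both fractions. In TET, 16 receptors (4.61%) recurred in at least 2 libraries. Of these, 15 were found in mutant libraries only, and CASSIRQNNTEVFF was seen with 8 counts in mutant TET 2 and 1 count in WT TET 3. The WT TET libraries held 14 of the 368 TRBV19 clonotypes in TET, so few chances of sharing existed there. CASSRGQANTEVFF was the receptor in 3 TET libraries, with 14, 1 and 2 counts in mutant TET 1, mutant TET 3 and mutant TET 4. Of the 16, 15 had the same nucleotide sequence in each library, 10 used TRBJ1, 6 began with CASSI and none was found in CD8. Of all 368 TRBV19 clonotypes in TET, 178 used TRBJ1, and CASSI opened 31.8% ± 5.77 per library (SD, n = 7). Of all 347 TRBV19 receptors in TET, 42 were also in CD8. Whether the 16 differ from these was not tested. The counts of the 16 were low, between 1 and 17, the highest being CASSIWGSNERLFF in mutant TET 1. Whether these entries are separate rearrangements in each mouse or sequences carried between libraries was not tested.

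In CD8, 79 receptors (2.55%) recurred in at least 2 libraries, 5 were in 3 libraries and none in 4 or more. The 5 were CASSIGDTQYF, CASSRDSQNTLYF, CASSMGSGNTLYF, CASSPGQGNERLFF and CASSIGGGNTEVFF. Each was found in both strains, none was found in TET, and each was encoded by 2 or 3 different nucleotide sequences. The 2 encodings of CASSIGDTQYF and the 3 of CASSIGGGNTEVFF show how few nucleotides lie between V and J in the first, and how different nucleotides encoded the same glycines in the second.
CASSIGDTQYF, WT CD8 1: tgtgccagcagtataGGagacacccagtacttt
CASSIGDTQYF, mutant CD8 4 and WT CD8 4: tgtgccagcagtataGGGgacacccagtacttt
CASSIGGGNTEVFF, mutant CD8 3: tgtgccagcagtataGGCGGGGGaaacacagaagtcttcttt
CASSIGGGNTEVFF, WT CD8 2: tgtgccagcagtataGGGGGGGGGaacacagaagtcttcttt
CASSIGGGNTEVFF, WT CD8 3: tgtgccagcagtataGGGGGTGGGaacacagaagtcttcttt
Among 15 families, TRBV19 had rank 10 for the share of TET receptors found in at least 2 TET libraries and rank 13 for the same share in CD8. For comparison, TRBV13 had 8.92% in TET and 8.68% in CD8. A family with more receptors has more chances to share them, and these shares were not tested.

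TRBV19 clonotypes were rarely found in both fractions of a mouse. Of 368 TRBV19 clonotypes in TET libraries, 2 (0.543%) reappeared in that mouse's own CD8 library, against 120 of 5177 clonotypes (2.32%) of other families. The other families include TRBV13 with its larger clones, and the difference was not tested. By amino acid CDR3, 12.1% of TRBV19 receptors in TET were also in any CD8 library, rank 11 among 15 families. For TRBV13 this was 24.7%. Both TRBV19 clonotypes found in the own CD8 library were in mutant 2 and used TRBJ1-1 or TRBJ1-2. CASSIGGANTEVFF had 9 counts in mutant TET 2 and 1 count in mutant CD8 2. Its nucleotide sequence was found in 3 libraries, so it was also in a CD8 library of another mouse. The other clonotype had 1 count in mutant TET 2 and 4 counts in mutant CD8 2, and was found in these 2 libraries only. Its V and J alignments left no nucleotide between them, which depends on where the aligner ended each. Codon 4 of its CDR3 was AGC, as in 62.1% of the 301 nt entries but only 4.46% of the 305 nt entries.
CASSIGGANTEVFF: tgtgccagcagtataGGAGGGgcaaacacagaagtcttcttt
the other clonotype: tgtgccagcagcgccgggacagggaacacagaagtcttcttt
In addition, 33 of the 368 were in the CD8 library of another mouse and 31 in another TET library. More of the TRBV19 clonotypes in TET were thus shared with the CD8 libraries of other mice than with that of the same mouse, where 7 other CD8 libraries stand against 1. Sharing with other mice was not counted for the nucleotide clonotypes of other families. These counts therefore cannot be read as a trait of TRBV19.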

How the data were processed

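TCRβ amplicons were made by 5′RACE with 9-nt UMIs and sequenced as 300-base paired ends, per the labels' protocols. For each library the authors deposited a raw, unnormalized count per nucleotide CDR3, and a fraction, which is the count over a library total larger than the table's sum. The other deposited columns used were the V, D and J names, alignment positions and CDR3 length. Which aligner, clonotype caller, filters or build made them is not given in the sources used here. Shares were recomputed from counts, and 4 alpha-chain entries (6 counts) were left out.

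Clonotypes per V family were tested with edgeR 4.0.16 (R 4.3.3; quasi-likelihood, library size the number of clonotypes, no TMM, filterByExpr minimum count 10, no dispersion trend), with Benjamini-Hochberg adjustment over the families tested. The other 18 tests were two-sided exact permutation tests on group means (SciPy 1.17.1 and Python 3.11.15), adjusted together: 35 splits in TET, 70 in CD8, 2450 within strain for TET against CD8, and sign flips over 7 or 8 libraries. Adjusted p under 0.05 was the threshold. Scripts were tested on simulated data. Alternatives included DESeq2 1.42.0, equal depth (200 subsamples at 2536 or 17116 counts), leaving out each library, and the 305 nt V references, the last chosen after seeing the data.

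J segments were named from the J reference length, 19 nt above the RefSeq length (GRCm38.p6). TET and CD8 libraries of a number were paired because the design text describes individual mice. Deviations of V use correlated between paired libraries with r of -0.122, 0.102, 0.369 and -0.0302 in mutant and 0.129, -0.318 and 0.630 in WT mice, over 15 families, and the own CD8 library was highest in 2 of 7. Named receptors were the largest TRBV19 clonotype of each library, those in at least 2 TET libraries, the 5 in most CD8 libraries, and clonotypes in both libraries of a mouse. Named families were TRBV13 and the 3 most alike in share. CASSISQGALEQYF and other single values were picked within these sets after they were seen. The members, lists and tests were chosen with earlier results of these data known. The TET library of the fourth WT mouse was not analysed here.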

Additional observations from a re-analysis of the deposited data

Results flagged for a closer look

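The relative clone size of TRBV19 in mutant TET 4, -6.47 on the log2 scale, lay far from the other 3 mutant TET libraries, which ranged from -2.09 to -1.65. The gap was 0.91 of the group's whole range, above Dixon's 95% limit for 4 samples. Chance gives about 1 such value in 20 groups, and 15 groups were examined. In that library 27 TRBV19 clonotypes held 50 counts, and the 18 clonotypes shared with WT TET 2, none of them TRBV19, held 88.9% of all counts. The part these had in the value was not tested.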

How the results depend on the processing

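Of 135 alternatives to the 22 tests other than leaving out 1 library, 116 kept direction and call, 7 lost the call, 1 gained it and 11 changed direction. For TRBV19 clonotypes, weighting by counts turned TET against CD8 to -1.15, mutant against WT in TET to -0.34 and the difference of strain effects to -0.49 (log2), and TMM turned the first to -0.13 and the last to -0.13. The 305 nt entries alone turned the mutant TET count share to 0.464 points, the length difference of TET against CD8 to 0.135 and that of mutant against WT in TET to -0.370; equal depth turned the last to -0.0084. Leaving out TRBV13 ended the call on clone size between fractions (-0.13) and within TET (-0.50), turned mutant against WT in CD8 to -0.032, and turned CDR3 length against other families in CD8 to -0.119 (exact permutation adjusted p = 0.0234). Without WT TET 2 and mutant TET 4, the calls were lost for the count share between fractions (-1.41) and, within TET, for clone size (-1.43) and TRBJ1 share (12.6), and the length difference between fractions was called (-0.095). Weighted by counts, the TRBJ1 excess in CD8 was 4.06 (exact permutation adjusted p = 0.0603). With the mouse as a replicate block, the count share between fractions was -2.14 and lost its call, and no other call on TRBV19 changed under a block.

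Leaving out 1 library gave the following ranges. For clonotypes (log2), they were 0.02 to 0.14 for TET against CD8, 0.43 to 1.14 for mutant against WT in TET, 0.05 to 0.14 in CD8, and 0.34 to 1.05 for the difference of strain effects. For count share in points, they were -2.73 to -1.66 between fractions, -1.37 to 0.766 for the strains in TET and 0.171 to 0.630 in CD8. For relative clone size, they were -2.12 to -1.23, -2.10 to 0.14 and -0.067 to 0.083 in the same order. For TRBJ1 share in points, they were 17.9 to 25.9, -23.8 to -7.69 and -4.44 to -1.67. For CDR3 length, they were -0.113 to 0.0331, -0.0982 to 0.193 and 0.0984 to 0.125. Against other families within a library, clone size ranged from -2.82 to -1.87 in TET and -0.68 to -0.62 in CD8, TRBJ1 share from 11.5 to 18.4 and 4.46 to 5.60, and length from 0.0155 to 0.171 and -0.0048 to 0.0161. In TET, the first 2 of these lost their call at each omission because 6 libraries allow no p below 0.03125. The length difference between fractions changed sign without WT TET 1 (0.0331) and without WT TET 3 (0.0212), and was called without WT TET 2. In TET, the strain difference in length changed sign without mutant TET 1, mutant TET 2, WT TET 1 or WT TET 3, down to -0.0982.

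V families called for mutant against WT in TET numbered 1 by edgeR and 0 by counts, with TMM, with no filter, without single-count clonotypes, under the replicate block, without clonotypes held at 10 times the count elsewhere and without WT TET 2 and mutant TET 4; leaving out 1 library gave 0 to 2. The difference of strain effects gave 0 by edgeR and 1 with TMM and with DESeq2. WT TET held 14 TRBV19 clonotypes in 3 libraries, so shares within them rest on few clonotypes.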

Other observations

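TRBV19 clonotypes without a D segment call made up 33.8% ± 5.07 in mutant TET and 29.0% ± 4.18 in WT TET, against 22.2% ± 1.94 in mutant CD8 and 25.2% ± 1.40 in WT CD8 (SD, n = 4, 3, 4 and 4). The difference between the fractions was not tested. In other families the share was 29.3% ± 1.00 in mutant TET and 29.0% ± 6.17 in WT TET, against 25.5% ± 0.65 over the 8 CD8 libraries.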
